A study of Mus musculus with 2 samples.

Results

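The Hippo pathway and its TEAD transcription factors were described in mouse lung at embryonic day 14.5 through 10 genes: the coactivator genes Yap1 and Wwtr1 (which encodes TAZ), the transcription factor genes Tead1, Tead2, Tead3 and Tead4, the kinase genes Lats1 and Lats2, the upstream regulator Nf2 (merlin) and the TEAD cofactor Vgll4. They were listed by symbol, matched to the gene tables through GENCODE gene identifiers, and are 10 of the 43346 mouse genes in those tables. Total RNA from lungs of strain B6NCrl embryos was sequenced as 2 libraries, biological replicates 1 and 2 of 1 group, with no second genotype, treatment or age. Each library began with 10.0 ng of RNA longer than 200 nt, extracted with the Ambion mirVana kit and supplied with spike-in RNA. Each sample is labelled both as a mixture of the sexes and as a lung of pup 1. How many animals contributed RNA to a library is therefore uncertain, and the spread between the libraries may be partly technical.

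In the canonical Hippo cascade, the kinases MST1 and MST2 with the adaptor SAV1 activate LATS1 and LATS2, which phosphorylate YAP and TAZ and keep them out of the nucleus. Unphosphorylated YAP and TAZ enter the nucleus and, having no DNA-binding domain of their own, bind TEAD proteins on DNA to activate growth and matrix genes, while VGLL4 competes with them for the same TEAD surface. In fetal lung the pathway is known for its part in airway branching, epithelial progenitor maintenance and mesenchymal growth. The protein states that carry the signal (phosphorylation and location) are not measured by RNA-seq.

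The expected counts summed to 33601136 in replicate 1 and 34535168 in replicate 2, with 4.94% and 3.96% of them on spike-ins. Lung epithelium, mesenchyme and vessel markers were all detected. Sftpc, a surfactant gene, had 2126.93 TPM in replicate 1 and 2183.57 in replicate 2, and Col3a1, a fibrillar collagen, had 1222.31 and 1258.09 TPM. TPM (transcript abundance divided by length and scaled to a fixed library sum) allows levels of genes to be compared. RNA from 4 Y-linked genes reached 112.97 TPM in sum in replicate 1 and 0.05 in replicate 2, whereas Xist, the X-inactivation RNA, had 0.07 and 70.11 TPM. These values go against the label of mixed sexes. In every ratio between the libraries, a difference between the sexes therefore cannot be told apart from any other difference between them. The libraries also differed in some markers of muscle, mesothelium and liver. A call is a ratio of at least 2-fold with an adjusted p under 0.05, and 1.10% of all genes tested were called. Of the markers, 3 of 4 of skeletal muscle and 1 of 3 of mesothelium (Msln) were called higher in replicate 1. The other skeletal muscle marker, Mylpf, went the other way (70 and 87 counts, not called). Upk3b and Wt1, the other mesothelium markers, had ratios of only 1.14 and 1.05. Of the liver markers, 2 of 3 (Afp and Apoa1) were called lower in replicate 1. The calls of Acta1 (skeletal muscle) and Apoa1 were lost with edgeR's exact test (adjusted p = 0.114 and 0.580). The summed TPM of 8 heart muscle markers was 657 in replicate 1 and 126 in replicate 2, and Nppa, a defining atrial marker, had 234 counts in replicate 1 and 0 in replicate 2.

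Tead2 was the highest of the 10 genes, Vgll4 was next, and Tead4 was the lowest. All 10 were detected, meaning at least 1 TPM in both libraries, as were 58.8% of the 21474 protein-coding genes matched. Of the 10, 8 had at least 10 TPM in both libraries, as had 39.7% of protein-coding genes. Their median level was 21.3 TPM, beside a median of 4.10 TPM over protein-coding genes, and 9 of the 10 lay above that median. The highest mean was 61.7 times the lowest. In whole tissue, more cells of a type and more RNA per cell cannot be told apart.

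**Figure D1:**
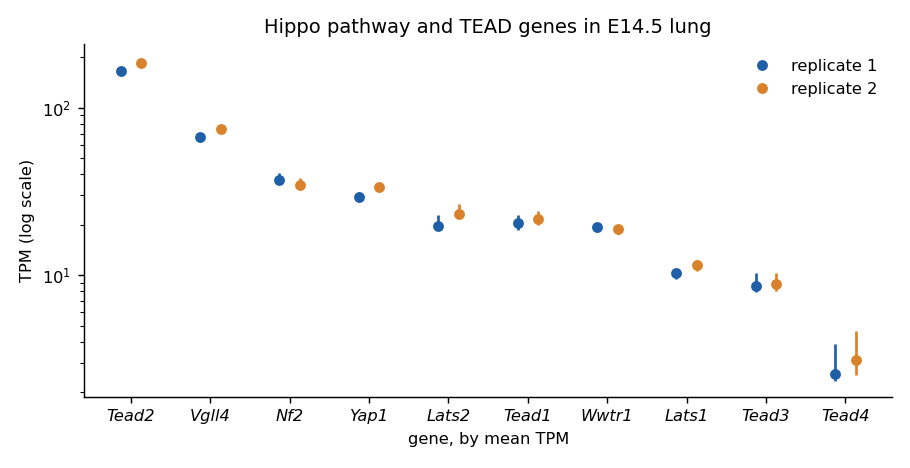
TPM of each gene (log scale) in replicate 1 (left, blue) and replicate 2 (right, orange), with vertical lines for the credible interval that the authors deposited for each value. Tead2 stands at 164.96 and 185.22 TPM and Tead4 at 2.55 and 3.13 TPM, and Lats2 and Tead1 are the only neighbours in the order whose values overlap.

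The TEAD genes encode the DNA-binding partners of YAP and TAZ, and they spanned the whole range of levels among the 10. Tead2 (ENSMUSG00000030796.11, chr7:45215753-45233644, plus strand, mm10) had 164.96 TPM in replicate 1 and 185.22 in replicate 2 (mean 175 ± 14.3, SD, n = 2). This level was above that of 96.4% of protein-coding genes. Tead1 (ENSMUSG00000055320.12, chr7:112679318-112906807, plus strand) had 20.44 and 21.78 TPM (21.1 ± 0.948, SD, n = 2), Tead3 (ENSMUSG00000002249.13, chr17:28331671-28350817, minus strand) had 8.65 and 8.86 TPM, and Tead4 (ENSMUSG00000030353.11, chr6:128224288-128300823, minus strand) had 2.55 and 3.13 TPM. The values of each TEAD gene were separate from those of every other in both libraries. Tead4 rested on 145 and 148 counts and Tead3 on 474 and 484, whereas Tead2 rested on 6910 and 7738.

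Most of the TEAD RNA per length was Tead2 RNA. It made up 83.9% of the summed TPM of the 4 genes in replicate 1 and 84.6% in replicate 2 (84.2% ± 0.476, SD, n = 2). Tead1 held 10.4% and 9.95%, Tead3 4.40% and 4.05%, and Tead4 1.30% and 1.43%. The sum over the 4 genes was 196.6 TPM in replicate 1 and 218.99 in replicate 2, against 48.57 and 52.39 TPM for the sum of Yap1 and Wwtr1. The TEAD mRNAs share only short exact stretches. Between the leading coding transcripts of each pair, the longest was 59 nt between Tead3 and Tead4, 35 nt between Tead2 and Tead3, 23 nt between Tead2 and Tead4, and 17 nt between Tead1 and each of the others.

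The Tead1 level depended on short transcript models that are not typed as protein coding. Of its TPM, 61.1% in replicate 1 and 65.3% in replicate 2 lay on such models, but they held only 10.3% and 12.2% of its counts. Most of this lay on a pair of retained-intron models. Tead1-209 (646 nt) and Tead1-214 (894 nt) together had 169 and 195 counts and 59.8% and 64.3% of the gene's TPM. The long coding model Tead1-202 (9480 nt) had 1357 and 999 counts. TPM divides by length, so a few reads on a short model weigh more than many on a long one. Without models typed as retained intron, processed transcript or nonsense-mediated decay, Tead1 had 7.95 TPM in replicate 1 and 7.56 in replicate 2. It then stood ninth in place of sixth, close to Tead3, which had 8.03 and 7.91 TPM when treated alike. Under the same treatment, Tead2 held 89.9% and 90.8% of TEAD TPM, and Tead1 4.35% and 3.74%. The ratio of Tead2 to Tead1 was 8.07 and 8.50 with all models, and 20.7 and 24.3 without those models.

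**Figure D2:**
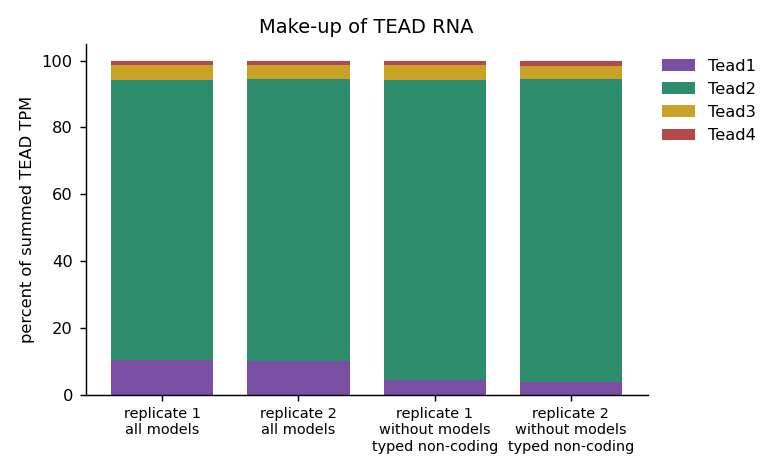
Percent of the summed TEAD TPM held by each TEAD gene, as stacked bars for replicates 1 and 2, first with all transcript models and then without models typed non-coding. Tead2 fills 83.9% and 84.6% of the first pair of bars and 89.9% and 90.8% of the second pair, and the Tead1 part shrinks to 4.35% and 3.74%.

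The main Tead2 mRNAs differed within the stretch that encodes the TEA domain, the DNA-binding domain of the family. Tead2-201 carried 78.6% of Tead2 TPM in replicate 1 and 74.5% in replicate 2, and Tead2-202 carried 12.6% and 16.3%. Tead2-202 lacks a block of 105 coding nt (35 codons) at chr7:45217346-45217450 on the plus strand. That block is shown because it separates the 2 leading mRNAs of the highest gene. It is printed in capitals between 12 nt of Tead2-201 mRNA on each side, from the GENCODE M21 transcript sequences (GRCm38, the same build as mm10).
Tead2-201 block: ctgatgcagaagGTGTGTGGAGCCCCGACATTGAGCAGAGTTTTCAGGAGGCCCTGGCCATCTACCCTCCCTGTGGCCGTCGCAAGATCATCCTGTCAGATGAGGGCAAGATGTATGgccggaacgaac
Models of Tead2 without a match in that annotation release held 7.61% and 7.76% of its TPM.

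The share on the leading model varied most between the libraries for Tead3 and Tead4. Tead3-201 carried 59.2% of Tead3 TPM in replicate 1 and 40.2% in replicate 2, and an unmatched model held 23.3% and 36.1%. This split is poorly determined. The deposited interval of the unmatched model ran from 4.6e-05 to 3.03 TPM in replicate 1 and from 7.1e-04 to 3.52 in replicate 2. By posterior mean TPM that model held 16.11% and 17.45%. Tead4-201 carried 68.8% and 54.3% of Tead4 TPM, but its own level hardly changed (116 and 113 counts, 1.75 and 1.70 TPM). The short model Tead4-204 (520 nt) had 0 and 6.02 counts, which gave it 0% and 20.4% of Tead4 TPM. Both genes had under 500 counts in each library, and the deposited credible intervals of their gene levels were the widest relative to the level.

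The coactivator genes stood near the middle of the order, and Yap1 was the higher of the pair. Yap1 (ENSMUSG00000053110.9, chr9:7931999-8004596, minus strand) had 29.13 TPM in replicate 1 and 33.51 in replicate 2 (31.3 ± 3.10, SD, n = 2). Wwtr1 (ENSMUSG00000027803.10, chr3:57455649-57575910, minus strand) had 19.44 and 18.88 TPM (19.2 ± 0.396). The values did not overlap, and the ratio of Wwtr1 to Yap1 TPM was 0.667 in replicate 1 and 0.563 in replicate 2. With 2 values per gene, an exact two-sided permutation test cannot give a p below 0.33, so no order of levels was tested. Their leading transcripts share no exact run longer than 15 nt.

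Yap1 TPM was spread over several transcript models, whereas Wwtr1 TPM lay almost wholly on Wwtr1-201. Only 2 models of Wwtr1 were quantified, against 10 of Yap1, and splice forms outside these models would not be seen. Yap1-202 carried 69.9% of Yap1 TPM in replicate 1 and 70.9% in replicate 2, whereas Wwtr1-201 carried 98.8% and 98.6% of Wwtr1 TPM. Yap1-202 omits a 48-nt exon (16 codons) at chr9:7950492-7950539 on the minus strand, which encodes part of the transcription activation region. Models with the exon held 27.0% of the TPM that could be assigned to inclusion or skipping in replicate 1 and 23.6% in replicate 2 (25.3% ± 2.37, SD, n = 2). The exon, which keeps the reading frame, is shown in capitals between 12 nt of the neighbouring exons as joined in Yap1-201.
Yap1 48-nt exon: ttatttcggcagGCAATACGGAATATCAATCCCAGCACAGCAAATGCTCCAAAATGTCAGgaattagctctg

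**Figure D3:**
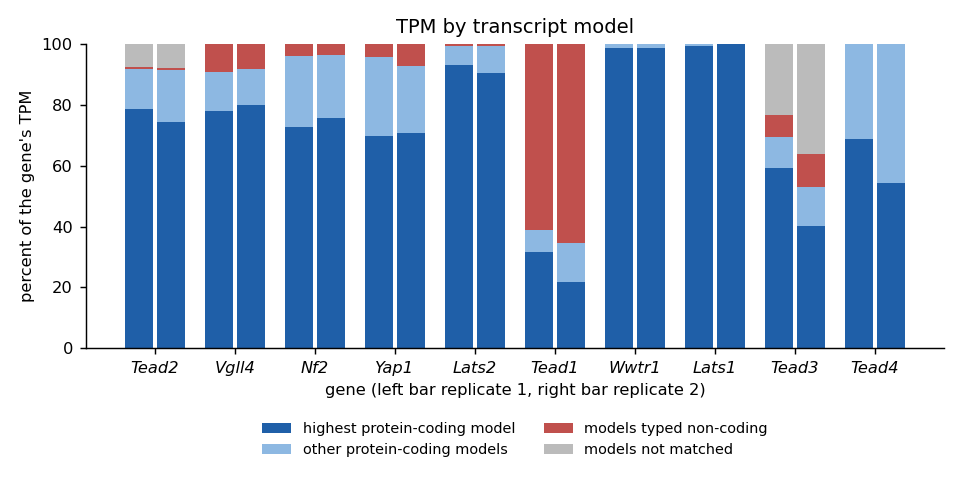
Percent of each gene's TPM on its highest protein-coding model, on other protein-coding models, on models typed as retained intron, processed transcript or nonsense-mediated decay, and on models without a match in the annotation, with replicate 1 as the left and replicate 2 as the right bar of each pair. Tead1 stands apart with 61.1% and 65.3% on models typed non-coding, while Lats1 and Wwtr1, with only 2 models each, are almost a single colour.

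The LATS kinases, which phosphorylate YAP and TAZ, were both detected, with Lats2 the higher. Lats2 (ENSMUSG00000021959.11, chr14:57689662-57758388, minus strand) had 19.67 TPM in replicate 1 and 23.32 in replicate 2 (21.5 ± 2.58, SD, n = 2). Lats1 (ENSMUSG00000040021.8, chr10:7681214-7716460, plus strand) had 10.26 and 11.43 TPM (10.8 ± 0.827). Lats1 thus stood at 0.522 of the Lats2 level in replicate 1 and 0.490 in replicate 2, and the 2 genes did not overlap. Lats1-202 carried 99.4% of Lats1 TPM in replicate 1 and 100% in replicate 2, and Lats2-201 carried 93.2% and 90.6% of Lats2 TPM. A processed pseudogene on the other strand, Gm20430, overlaps Lats2 and had 23.8 and 49.3 counts, beside 2162 and 2529 for Lats2. The sources used here do not say whether counting used strand, so reads of such overlapping genes cannot be told apart.

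Nf2 encodes merlin, a membrane-associated scaffold that promotes LATS activation, and it followed Vgll4 in the order. Nf2 (ENSMUSG00000009073.12, chr11:4765845-4849536, minus strand) had 37.27 TPM in replicate 1 and 34.74 in replicate 2 (36.005 ± 1.79, SD, n = 2). Merlin has 2 well-known forms that differ at the C terminus through an exon carrying an early stop codon. Nf2-205, which skips that 45-nt exon, carried 72.8% of Nf2 TPM in replicate 1 and 75.6% in replicate 2, and Nf2-202, which includes it, carried 9.46% in both. Over all models that could be assigned, inclusion was 12.5% and 12.0% (12.2% ± 0.360, SD, n = 2). The exon lies at chr11:4780578-4780622 on the minus strand and is shown in capitals between its neighbours in Nf2-202, since it decides the C terminus.
Nf2 45-nt exon: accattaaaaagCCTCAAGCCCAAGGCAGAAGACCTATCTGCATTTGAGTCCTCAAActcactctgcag

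Vgll4, whose protein binds TEADs through paired TDU motifs and displaces YAP, was second only to Tead2. Vgll4 (ENSMUSG00000030315.11, chr6:114860628-114969994, minus strand) had 67.12 TPM in replicate 1 and 74.81 in replicate 2 (71.0 ± 5.44, SD, n = 2), above 90.0% of protein-coding genes. It stood at 2.30 times the Yap1 level in replicate 1 and 2.23 times in replicate 2. Vgll4-201 carried 77.9% and 79.9% of its TPM. The other Vestigial-like genes were below 1 TPM. Vgll3 lay just under that limit, with 0.99 TPM in replicate 1 and 0.96 in replicate 2 (71 and 69 counts). Vgll1 had 1 and 9 counts, and Vgll2 had 0 and 1, where a count of 0 allows up to 3 counts (counting error only).

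Tead1 also has small alternative exons, with a lower estimated share in replicate 1 than in replicate 2. A 63-nt exon at chr7:112841888-112841950 was included in 5.89% of assignable TPM in replicate 1 and 17.7% in replicate 2, and a 12-nt exon at chr7:112856053-112856064 in 10.2% and 31.6%. The share for the 63-nt exon counts the retained-intron model Tead1-214 as skipping. Without models typed non-coding, its inclusion was 8.85% and 28.4%. The long model Tead1-201 (9964 nt), which holds both exons, had 140 and 402 counts. Its deposited intervals overlapped, from 0.217 to 1.18 TPM in replicate 1 and from 0.890 to 2.57 TPM in replicate 2. The expected counts of such overlapping models are estimates, and no test was made of the difference. The 12-nt exon, the smallest found, is printed in capitals between its neighbours in Tead1-201.
Tead1 12-nt exon: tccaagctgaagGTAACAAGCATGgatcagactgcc

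The core kinase cassette around LATS was present as a whole. Its 5 other genes all passed 1 TPM in both libraries, and their median level was 24.5 TPM. Mob1a, a MOB adaptor that activates LATS, had 73.4 TPM in replicate 1 and 75.6 in replicate 2. Stk3 (MST2) had 34.6 and 34.44 TPM and Stk4 (MST1) had 23.22 and 25.74 TPM, so both upstream kinases were above Lats1 and Lats2 within each library, although Stk4 in replicate 1 did not exceed Lats2 in replicate 2. Of the MAP4K, TAO and NDR kinases, which can phosphorylate LATS or YAP or act beside them, 12 of 12 were detected at a median level of 16.1 TPM. The highest were Stk38 (NDR1) at 75.2 and 77.22 TPM, Map4k3 at 44.55 and 46.69 TPM, and Map4k5 at 34.66 and 39.71 TPM.

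Upstream regulators at junctions and in polarity complexes were also widely detected. Of 22 measured, 21 were detected, and the median level was 22.04 TPM, and Frmd1 was not analysed here. Limd1, an Ajuba-family LIM protein that restrains LATS, had 53.96 TPM in replicate 1 and 53.86 in replicate 2. Llgl1, a basolateral polarity protein, had 50.71 and 56.16 TPM, and Rassf1, a partner of the MST kinases, had 40.2 and 43.42 TPM. Crb1 was the exception, with 2 and 0 counts.

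The cadherins of the Fat and Dachsous group were uneven. Of 7 genes in this list, 4 were detected, and the list median was 5.97 TPM. Fat1 had 31.82 TPM in replicate 1 and 34.06 in replicate 2, and Dchs1, the ligand of Fat4, had 13.98 and 16.89 TPM. Fat4 had 7.61 and 7.54 TPM. Fat2 (0.41 and 0.23 TPM), Fat3 (0.50 and 0.61 TPM) and Dchs2 (0.16 and 0.22 TPM) all lay below 1 TPM.

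STRIPAK, the phosphatase complex that inactivates MST1 and MST2, had the highest median of the pathway lists at 42.4 TPM, and 9 of its 10 genes were detected. Ppp2r1a, the scaffold subunit of the PP2A phosphatase in general, had 277.75 TPM in replicate 1 and 287.93 in replicate 2. Mob4 had 106.37 and 109.6 TPM and Strn4 had 97.12 and 111.06 TPM. Strip2 had 0.65 and 0.26 TPM. Of 6 other coregulators of TEAD factors, the 3 detected were the steroid receptor coactivators Ncoa2 (20.6 and 22.05 TPM), Ncoa3 (13.92 and 14.1 TPM) and Ncoa1 (6.41 and 6.76 TPM), and the 3 not detected were Vgll1, Vgll2 and Vgll3.

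**Figure D4:**
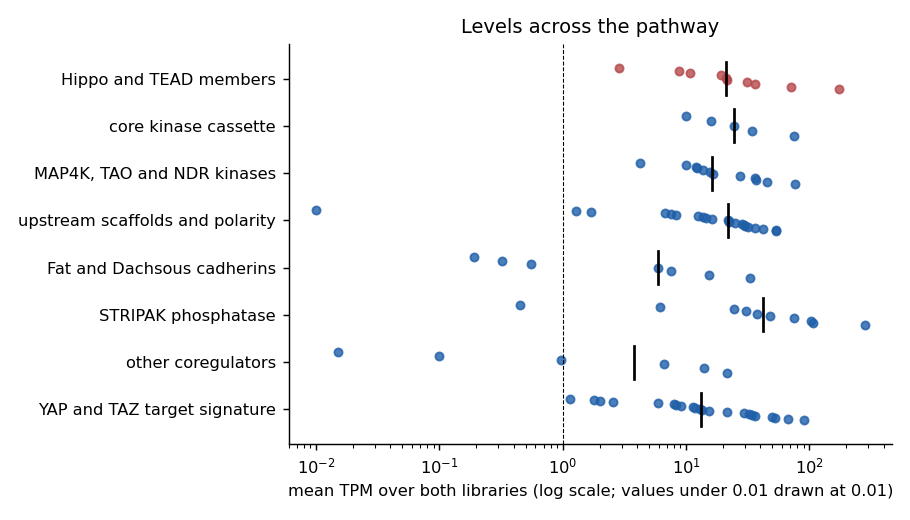
Mean TPM over both libraries (log scale) of each gene in the pathway lists, 1 point a gene, with the list median as a vertical bar and 1 TPM as a dashed line. The medians run between 3.78 TPM for the other coregulators and 42.4 TPM for STRIPAK, with the Hippo and TEAD members at 21.3 TPM.

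Genes of a published YAP and TAZ target signature, to which Lats2 itself belongs, were nearly all detected: 21 of 22, with a median of 13.2 TPM. The highest were Rbms3, an RNA-binding protein, at 88.88 TPM in replicate 1 and 93.09 in replicate 2, Tgfb2, a growth factor, at 65.08 and 69.02 TPM, and Ccdc80, a matrix protein, at 51.14 and 53.71 TPM. The most used YAP targets fall outside the rule for naming genes and were chosen after their values were seen. Ccn1 (Cyr61) had 25.94 and 33.37 TPM, Ccn2 (Ctgf) had 8.15 and 7.87 TPM, and Amotl2, which binds YAP and retains it in the cytoplasm, had 31.74 and 40.32 TPM. Levels of targets in a single condition do not measure how active YAP and TAZ were.

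TEAD proteins bind the motif CATTCC, or GGAATG on the other strand, and both readings were searched in promoters of 300 nt (250 before and 50 after the start) from RefSeq (GRCm38.p6). Of 27025 genes with a promoter in that table, 16.6% held it. Of the 10 genes, 8 were matched, all but Tead1 and Tead4, and 5 held it: Yap1, Wwtr1, Tead3, Lats2 and Vgll4. Of 15 target signature genes matched, 7 held it. Genes with several start sites have several windows, which raises the chance of a match. Counted by window, 7 of 13 for the 10 genes and 7 of 17 for the targets held it, against 14.7% of all windows. The 2 Wwtr1 windows with the motif share the same site, and Lats2 is counted in both sets. A match is a stretch of letters and not a measured binding site. The windows of the coactivators, of Lats2 and Vgll4 and of 2 well-known targets are shown as read on each gene's own strand, with the motif in capitals.
Yap1, chr9:8004720-8004749, minus strand: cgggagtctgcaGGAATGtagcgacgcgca
Wwtr1, chr3:57576029-57576058, minus strand: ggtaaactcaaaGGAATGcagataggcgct
Lats2, chr14:57746102-57746131, minus strand: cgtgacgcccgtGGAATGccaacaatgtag
Vgll4, chr6:114969268-114969297, minus strand: cgagtggggtggGGAATGctgagaaatgcc
Ccn1, chr3:145650071-145650100, minus strand: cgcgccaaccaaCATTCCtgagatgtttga
Amotl2, chr9:102717727-102717756, plus strand: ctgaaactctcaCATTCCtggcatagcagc
In these windows the motif begins at position -141 of Yap1, -136 of Wwtr1, 4 of Lats2, -82 of Vgll4, -103 of Ccn1 and -65 of Amotl2, counted along the gene's strand from the start site.

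The 10 genes differed little between the libraries. On scaled counts, their log2 ratios of replicate 1 over replicate 2 ran between -0.16 for Lats2 and 0.12 for Tead1, with a median of -0.03, beside a median of 0.00 over all 14870 genes tested. The ratio was above 0 for 5 genes and below 0 for 5. Scaling by spike-ins moved the median over all genes to -0.34, and all 10 ratios were then below 0, so directions are relative to the bulk of genes. None of the 10 was called, where a call needs an adjusted p under 0.05 in an exact binomial test with Benjamini-Hochberg adjustment and a ratio of at least 2-fold, beside 1.10% of all genes tested. The test sees counting error only and compares these 2 libraries, not conditions.

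Without the size limit, 5 of the 10 passed the same test, beside 22.1% of all genes. An unadjusted p under 0.05 was found for 8 of the 10, beside 32.7% of all genes. At higher counts this test passes smaller ratios, and the shares over all genes were not matched for counts. The median level of the 10 was 21.3 TPM, whereas the genes tested reached down to a mean of 1 TPM. Of the 5 that passed, Lats2, Tead2, Vgll4 and Yap1 were lower in replicate 1 (4 of 10, beside 10.9% of all genes) and Nf2 was higher. These counts depended on the setting. With spike-in scaling, 9 of the 10 (all but Tead4) were lower in replicate 1, beside 76.4% of all genes, and none was higher, as the ratio of Nf2 turned to -0.23. With no filter on low values 3 were lower, beside 6.52% of all genes, since Yap1 no longer passed (adjusted p = 0.0563, exact binomial test). Of the 5, Lats2 had the ratio furthest from 0, with 2162 counts in replicate 1 and 2529 in replicate 2 (log2 ratio -0.16, adjusted p = 0.00129, exact binomial test). With edgeR's exact test, which allows for a dispersion between libraries, 0 of the 10 passed at any size, beside 0.780% of all genes. That dispersion was estimated from these same 2 libraries taken as 1 group, so the difference under test counts as noise. The result therefore cannot show that the levels of the 10 genes were equal. Tead1 had more counts in replicate 1 (1679, against 1615 in replicate 2) but a lower TPM (20.44, against 21.78). With the models typed non-coding left out, its TPM was the higher in replicate 1 (7.95, against 7.56).

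Beyond the 10, Ankrd1 alone was called among the 72 other pathway and target genes tested, beside 1.10% of all genes tested. Ankrd1, a YAP target that is also strongly expressed in heart muscle, had 77 counts in replicate 1 and 9 in replicate 2 (2.07 and 0.24 TPM), which gave a log2 ratio of 3.09 (adjusted p = 2.75e-13, exact binomial test, and 6.09e-09 with edgeR's exact test). All 8 heart muscle markers were also called higher in replicate 1, by 2.33-fold (Actc1) and more. The part of heart tissue in the Ankrd1 difference was not tested. The targets Ccn1 and Amotl2, chosen after their values were seen, were lower in replicate 1 by less than the limit. Their log2 ratios were -0.31 and -0.33, and neither passed edgeR's exact test. F3, another target, went the other way at 0.26. Over the 22 signature genes tested, 14 ratios were below 0, and the median was -0.06, beside 0.00 over all genes tested.

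**Figure D5:**
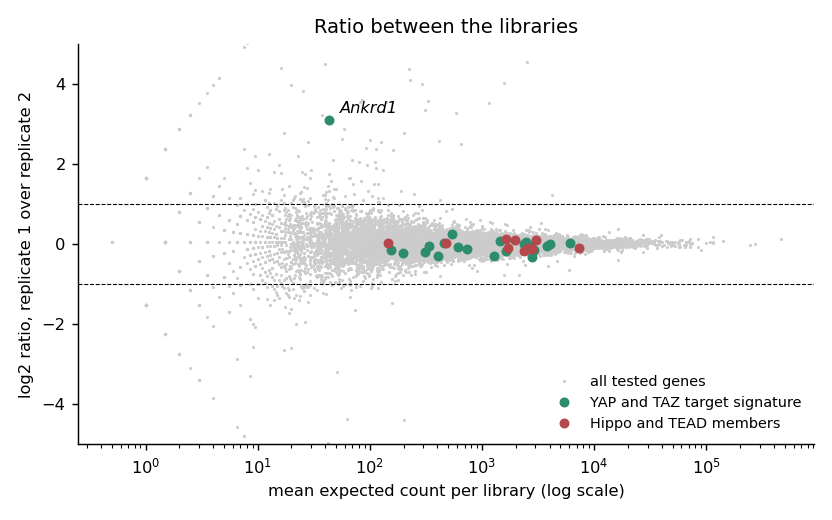
Log2 ratio of replicate 1 over replicate 2 against the mean expected count (log scale), for all tested genes (grey), the YAP and TAZ target signature (green) and the 10 Hippo and TEAD genes (red), with dashed lines at the 2-fold limit; 25 genes lie beyond the axis. The red points stay between -0.16 and 0.12, and Ankrd1 alone of the green points lies outside the limit, at 3.09.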

How the data were processed

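Both libraries were analysed from gene and transcript tables that the authors deposited. Per the file headers these hold expected counts (estimated reads per feature, not always whole), TPM, the percent of a gene's TPM on each transcript, posterior mean TPM, and bounds of credible intervals, whose level is not stated, kept as signal values on the deposited TPM scale. The deposited read-me files name build mm10 and GENCODE M4. The sources used here name no aligner or quantifier, and give neither strand use nor poly(A) selection. Symbols, types and coordinates came from GENCODE M21 (GRCm38, the build of mm10) by unversioned identifier. In all, 42462 of 43346 mouse genes matched, and 72 of 81 transcript models listed under the 10 genes, 64 with equal length. Among the matched models, Med25-202 (listed under Tead2) and Gm49361-201 (listed under Lats2) are named after other genes in M21. Inclusion of an exon is the TPM of models that contain it over that of models that contain or skip it.

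The members and the gene lists were chosen with earlier results of these data known. Named genes were the 10 members, the 3 highest of each pathway list, those under 1 TPM in either library and those called between the libraries. Expected counts were rounded. Library scaling used TMM from edgeR 4.0.16 under R 4.3.3. Over genes with mean TPM of 1 or more, an exact two-sided binomial test of the 2 counts was run (scipy 1.17.1), with Benjamini-Hochberg adjustment and 0.5 added to counts for ratios. It was tested on simulated data that held counting error only, which cannot show how it handles a wider spread between libraries. With 1 library on each side there is no residual degree of freedom, so edgeR's quasi-likelihood test could not be run. Alternatives were edgeR's exact test, with a common dispersion estimated from both libraries taken as 1 group, and DESeq2 1.42.0 size factors. No source used here names molecular identifiers.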

Additional observations from a re-analysis of the deposited data

How the results depend on the processing

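Apart from values that leave out a library, 125 values were recomputed: 91 stayed within the spread between replicates, within 1.5-fold for counts, or on the same side of the threshold, 28 moved, 5 changed direction and 1 lost its call. With scaling by spike-ins, which shifts the median log2 ratio of all genes to -0.34, the log2 ratio of replicate 1 over replicate 2 became -0.24 for Wwtr1, -0.22 for Tead1, -0.31 for Tead3, -0.31 for Tead4 and -0.23 for Nf2, none of them called, and Msln, a mesothelium gene called higher in replicate 1 otherwise, lost its call at 0.97. With posterior mean TPM, Wwtr1 averaged 18.7, Tead3 9.11 and Tead4 3.295 TPM, the Tead2 and Tead4 shares were 83.7% and 1.58%, and Lats1 over Lats2 was 0.467. The leading transcripts then held 66.3% (Yap1-202), 98.3% (Wwtr1-201), 49.4% (Tead4-201), 84.1% (Lats2-201) and 70.2% (Nf2-205). With expected counts per kilobase, Wwtr1 averaged 21.0, Tead1 23.0, Tead3 9.42, Lats1 12.0 and Nf2 39.3 on the TPM scale. Without models typed non-coding, an alternative chosen after seeing the data, Tead1 averaged 7.76, Tead3 7.97 and Vgll4 64.9 TPM, the Tead1, Tead2 and Tead4 shares were 4.04%, 90.3% and 1.47%, and 6 of 10 genes kept their rank. That alternative removes the short models that hold most Tead1 TPM, which accounts for the Tead1 values. The cause of the other moves was not tested. With no size limit, 5 of the 10 genes were called, beside 22.1% of all genes tested.

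Over all 14870 genes tested, 164 were called, against 285 with spike-in scaling, 106 with edgeR's exact test and 3293 with no size limit. With no filter, 477 of 24179 were called. DESeq2's size factors gave 165. With 2 libraries, leaving out 1 cannot move a mean by more than the spread, so it does not bear on stability. Without replicate 2 Tead1 passed Lats2. No paired analysis was possible because there is 1 group.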

Other observations

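Among the 90 pathway, target and member genes, Map4k2 and Ppp2r1a had a deposited TPM outside their own deposited credible interval in both libraries, and none of the 10 Hippo and TEAD genes did so in either. Map4k2, a kinase upstream of LATS, had 10.1 TPM in replicate 1 (interval 11.5 to 16.6) and 17.48 TPM in replicate 2 (interval 17.5 to 24.7), while its counts were 683 and 856.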
